A study of Mus musculus with 9 samples.

Results

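The R-spondin axis was described here from 9 genes: the receptors Lgr4, Lgr5 and Lgr6, the ligands Rspo1, Rspo2, Rspo3 and Rspo4, and the ubiquitin ligases Znrf3 and Rnf43. They were taken by gene symbol from a table of 21049 genes, and all 9 were found in it. Smooth muscle cells had been sorted from mouse lungs by their fluorescence and sequenced as bulk RNA, and the study set the smooth muscle types of the lung side by side. The 9 libraries formed 3 groups of 3. The group total_SMC held all smooth muscle of the lung, with that of veins, from mice of genotype tg-Acta2-GFP, where the fluorescent protein is tied to the smooth muscle actin gene. PASMC was the pulmonary artery type, from ASMC-effector mice (genotype Cspg4/Acta2-CreER/R26-GFP), and BSMC the bronchial type, from NVSMC-effector mice (genotype Chrm2/Acta2-CreER/R26-GFP). The labels of all groups gave tamoxifen, 0.75 mg per 10 g body weight for 3 days. No age, sex or strain was in the labels used. The mouse lines differed between the groups, so cell population, mouse line and sort cannot be told apart.

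R-spondins are secreted proteins that bind the LGR receptors together with Znrf3 or Rnf43, ubiquitin ligases of the cell membrane that send Frizzled receptors for degradation. Once R-spondin has drawn the ligase into this complex the ligase is cleared from the membrane, Frizzled accumulates, and the cell responds more strongly to Wnt. Rnf43, Znrf3 and Lgr5 are themselves targets of beta-catenin, the transcriptional coactivator of the Wnt pathway, as shown in mouse intestine. In mouse lung Lgr6 is known as a marker of airway smooth muscle and Lgr5 as a marker of mesenchymal cells of the alveoli.

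Depth differed between groups. Divided by the library factors recovered from the spacing of the deposited whole numbers, the libraries held 8.93 to 9.90 M reads (M for mega) in total_SMC, 8.92 to 10.02 M in PASMC and 6.39 to 9.33 M in BSMC. Smooth muscle markers (9 genes) summed to 2941 to 3338 CPM (values scaled to a common library total) in total_SMC, 3550 to 3995 CPM in PASMC and 3857 to 4680 CPM in BSMC. Of these, 3 were lower in total_SMC than in PASMC and 6 lower in total_SMC than in BSMC, among them Acta2, Tagln and Lmod1 against BSMC, and none was higher. These were 33.3% and 66.7% of the list, beside 16.2% and 41.9% of all tested genes. As sums, the markers did not separate PASMC and BSMC in the direction of their labels, although single genes differed. Airway smooth muscle markers (8 genes) summed to 1512 to 1584 CPM in the libraries labelled PASMC and to 999 to 1098 CPM in those labelled BSMC. The gap between the sums rested on Hhip: the other 7 genes summed to 662 to 687 CPM in PASMC and 581 to 737 CPM in BSMC, which overlap. By gene, Fgf10, Wnt5a, Hhip and Chrm2 were higher in PASMC than in BSMC and 0 were lower. These were 57.1% of the 7 tested, beside 22.1% of all tested genes. Fgf10 was at 258 ± 14.5 in PASMC and 68.3 ± 29.4 in BSMC. Vascular smooth muscle markers (8 genes) summed to 1614 to 1676 CPM in PASMC and to 1561 to 1636 CPM in BSMC, and these ranges overlapped. Of these 8 genes, Kcnj8 was higher in PASMC than in BSMC, and Higd1b and Gja4 were lower (37.5% called). Chrm2, the gene named in the genotype of the BSMC mice, was higher in PASMC (327 ± 111 normalized read counts) than in BSMC (164 ± 54.6, log2 fold change 0.98, adjusted p = 0.0433). The groups overlapped in Chrm2, with 199 in PASMC replicate 3 and 223 in BSMC replicate 2. Cspg4, the gene named in that of the PASMC mice, averaged 2003 ± 370 in PASMC, against 1514 ± 244 in BSMC, without a call (0.40, adjusted p = 0.268). Whether the labels of these groups match their cells was not tested, and the group names below are those of the labels.

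A gene is called higher or lower where limma, fitted to log2 of normalized read count plus 1 over all genes, gave a Benjamini-Hochberg adjusted p under 0.05. All 9 members passed the filter, which asked for 3 or more libraries with a value of 10 or above. Rspo4 passed it through total_SMC alone, and Rspo2 and Rnf43 through total_SMC and a single PASMC library, so these 3 genes could enter the test only by being high there. Between total_SMC and PASMC 4 members were called, Lgr6 lower and Rspo1, Rspo2 and Rspo4 higher, where 16.2% of all tested genes were called (9.39% higher and 6.83% lower). Between total_SMC and BSMC 7 were called, where 41.9% of tested genes were (23.7% higher and 18.2% lower): Lgr6 and Znrf3 were lower, and Lgr4, Rspo1, Rspo2, Rspo4 and Rnf43 higher. Between PASMC and BSMC 4 were called, where 22.1% of tested genes were (13.2% higher and 8.88% lower): Lgr4, Lgr5 and Lgr6 were higher and Rspo1 lower. The balance of higher and lower calls over all genes turned with the scaling. In total_SMC against BSMC it was 3706 higher and 2847 lower, but 3217 and 4049 with quantile normalization, 3042 and 4065 with equal library totals, and 3399 and 1552 on reads without scaling. In PASMC against BSMC it was 2062 and 1389, but 2017 and 2072, 1817 and 2106, and 1897 and 685 under the same settings. The comparisons share libraries and are not independent of each other.

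**Figure D1:**
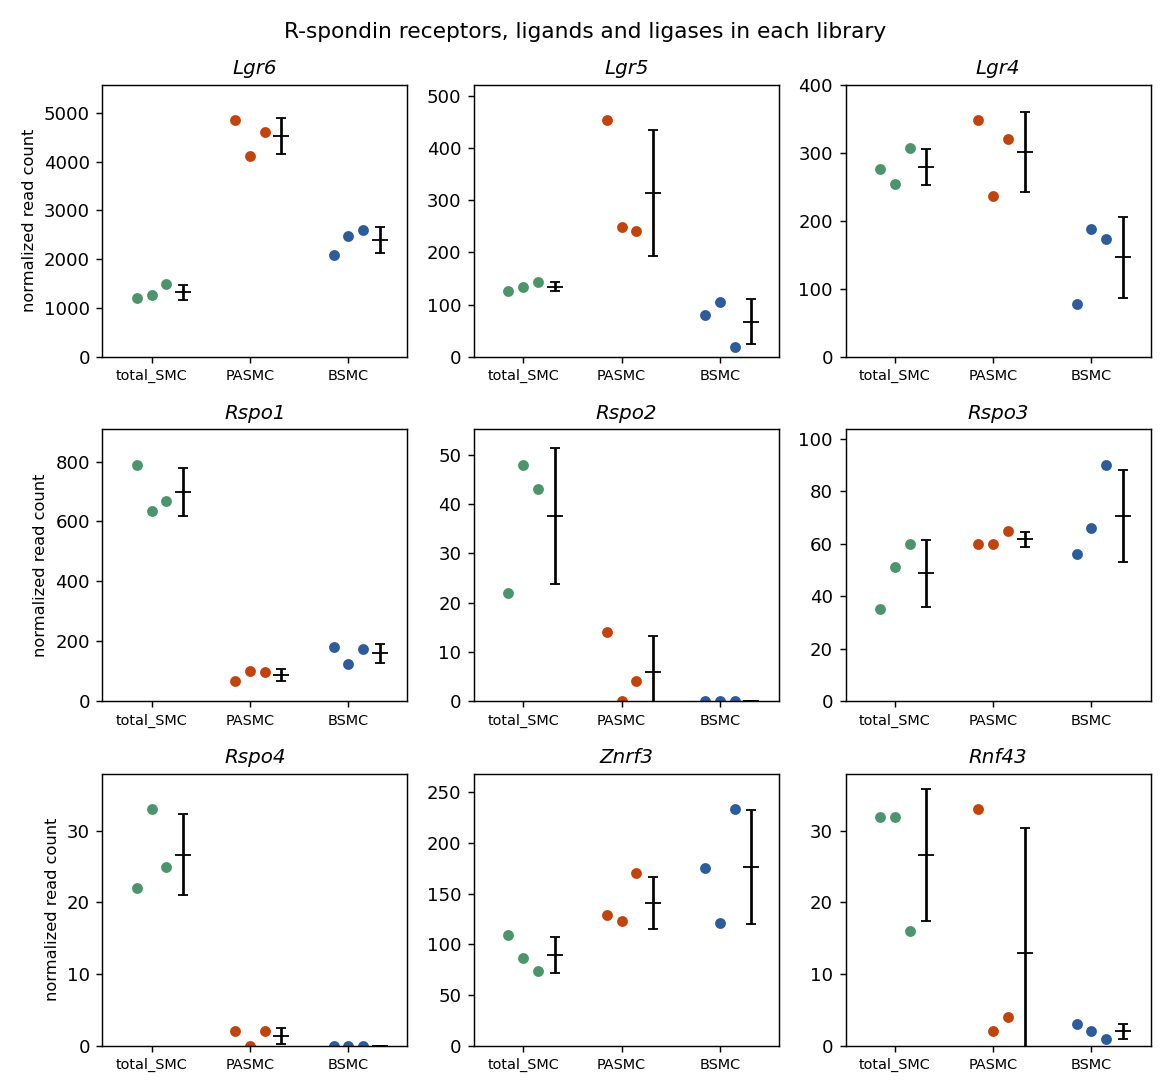
Normalized read counts (vertical axes, each from 0) of the 9 members in each library (points), with the mean and SD of each group of 3 (bar and whiskers; whiskers below 0 are not drawn). Lgr6 lies highest in PASMC and lowest in total_SMC without overlap, Rspo1 is highest in total_SMC, and Rspo2 and Rspo4 are at 0 in all BSMC libraries.

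The receptors are described first. Lgr6 (ENSMUSG00000042793, mm39 chromosome 1, 134911039 to 135033014, minus strand) had 1203, 1267 and 1499 normalized read counts in total_SMC, 4848, 4116 and 4619 in PASMC, and 2088, 2473 and 2601 in BSMC. The order was PASMC, BSMC, total_SMC, and no library of one group lay within the range of another. Lgr6 was lower in total_SMC than in PASMC by a log2 fold change of -1.78 (SE 0.13, adjusted p = 7.63e-06) and lower in total_SMC than in BSMC by -0.85 (SE 0.13, adjusted p = 0.000344). In PASMC it was higher than in BSMC by 0.93 (SE 0.13, adjusted p = 0.000404). The Lgr6 call and its direction held in all 21 alternative analyses of each comparison, with adjusted p of 5.88e-08 to 0.000425, 2.21e-05 to 0.00960 and 0.000233 to 0.00602 in the order given. This gene, known as an airway marker, was thus higher in the libraries labelled arterial than in those labelled bronchial, and so was Hhip, the Hedgehog-binding antagonist of airway smooth muscle, at 7597 ± 193 in PASMC and 3161 ± 298 in BSMC. In total_SMC Hhip was at 4274 ± 332, above BSMC (log2 fold change 0.44, adjusted p = 0.0053), whereas Lgr6 was below BSMC there. The part in the Lgr6 values of the lower smooth muscle marker sum of total_SMC was not tested.

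Lgr5 (ENSMUSG00000020140, chromosome 10, 115286216 to 115423685, minus strand) had 125, 134 and 143 normalized read counts in total_SMC, 453, 249 and 240 in PASMC, and 79, 104 and 19 in BSMC. The groups did not overlap, but PASMC replicate 1 stood far above the other PASMC libraries and BSMC replicate 3 below the other BSMC libraries. Lgr5 was higher in PASMC than in BSMC by 2.45 on the log2 scale (SE 0.51, adjusted p = 0.00583). The call held in all 21 alternatives (adjusted p up to 0.0333), but its size rested partly on BSMC replicate 3, without which it was 1.72 (adjusted p = 0.00214). Between total_SMC and PASMC it differed by -1.16 (SE 0.51, adjusted p = 0.16), and between total_SMC and BSMC by 1.29 (SE 0.51, adjusted p = 0.0599), neither of which was called. The first had an adjusted p of 0.00724 without BSMC replicate 3, 0.00251 with only its own 2 groups fitted and 0.00649 with array weights. The second had 0.0116 without BSMC replicate 2, 0.027 with array weights and 0.0479 with a block for the replicate number. The range over alternatives was 0.00251 to 0.418 for the first and 0.0116 to 0.151 for the second.

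Lgr4 (ENSMUSG00000050199, chromosome 2, 109747992 to 109844602, plus strand), the most broadly expressed of these receptors in mouse tissues, had 276, 255 and 307 normalized read counts in total_SMC, 348, 236 and 320 in PASMC, and 78, 188 and 173 in BSMC. All BSMC libraries lay below all others, and total_SMC and PASMC overlapped. Lgr4 was higher in total_SMC than in BSMC by 1.02 (SE 0.31, adjusted p = 0.0197) and higher in PASMC than in BSMC by 1.12 (SE 0.31, adjusted p = 0.0241). Between total_SMC and PASMC the difference was -0.09 (SE 0.31, adjusted p = 0.901). These calls were narrow. The one between total_SMC and BSMC was lost without total_SMC replicate 1 (adjusted p = 0.0515) or 3 (0.0719), in a range of 0.00285 to 0.0719. The one between PASMC and BSMC was lost without BSMC replicate 1 (0.0517), PASMC replicate 1 (0.0966) or PASMC replicate 3 (0.0624), with only those 2 groups fitted (0.0648) and without the trend and robust options (0.0564), in a range of 0.00604 to 0.0966.

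Marker lists of several other cell types differed between the groups in which the receptors were called. Lung fibroblast markers (11 genes, all detected in every group) summed to 5317 to 5891 CPM in total_SMC, 4205 to 4681 CPM in PASMC and 3507 to 3956 CPM in BSMC, without overlap. Of these 11 genes, 7 were higher and 0 lower in PASMC than in BSMC, where Lgr4, Lgr5 and Lgr6 were higher. In total_SMC against PASMC, where Lgr6 was lower, 4 were higher and 1 lower. In total_SMC against BSMC, where Lgr4 was higher and Lgr6 lower, 6 were higher and 0 lower. These were 63.6%, 45.5% and 54.5% of the list, beside 22.1%, 16.2% and 41.9% of all tested genes. Pdgfra, a growth factor receptor that marks fibroblasts, was at 7386 ± 813 in total_SMC, 1874 ± 178 in PASMC and 325 ± 170 in BSMC. Leukocyte markers (10 genes) summed to 305 to 322 CPM in PASMC, where Ptprc and Cd3e were at 0. In BSMC the leukocyte sum was 1124 to 1651 CPM, and 9 of 10 markers were lower in PASMC. Erythroid markers were lower in PASMC for 5 of 5 genes (0.810 to 2.34 CPM in PASMC and 35.0 to 84.5 CPM in BSMC), and mesothelial markers for 5 of 7. Of 10 epithelial markers 5 were higher and 1 lower in PASMC than in BSMC. Their sums overlapped, at 516 to 613 CPM in PASMC and 490 to 597 CPM in BSMC. Calls made up 90%, 100%, 71.4% and 60% of these lists in turn, beside 22.1% of all tested genes. Cd3e passed the filter through BSMC alone, and Cd79a and Alas2 through BSMC libraries and total_SMC replicate 2. Their calls are therefore not separate support for a lower level in PASMC. The part of any of these cells in the receptor values was not tested. In bulk libraries such as these, fewer cells of a type and less RNA per cell cannot be told apart.

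The ligands are described next, and the order of the groups differed among them. Rspo1 (ENSMUSG00000028871, chromosome 4, 124880223 to 124902892, plus strand), a ligand known for its role in ovary development, had 789, 635 and 670 normalized read counts in total_SMC, 66, 100 and 99 in PASMC, and 181, 124 and 175 in BSMC. Every total_SMC library was above every other library, and every BSMC library was above every PASMC library. Rspo1 was higher in total_SMC than in PASMC by 2.99 (SE 0.23, adjusted p = 1.28e-05), which is 7.93-fold, and than in BSMC by 2.13 (SE 0.23, adjusted p = 3.81e-05). Both calls held in all 21 alternatives, with adjusted p up to 0.000255 and 0.000473. Rspo1 was lower in PASMC than in BSMC by -0.85 (SE 0.23, adjusted p = 0.0223). This difference missed the threshold when BSMC replicate 1 (adjusted p = 0.0765), BSMC replicate 3 (0.0572) or PASMC replicate 1 (0.0966) was left out, with only those 2 groups fitted (0.0846) and on reads without scaling (0.0937), in a range of 0.00461 to 0.0966.

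The summed levels of mesothelial and of endothelial markers ran in the order of Rspo1. The mesothelial sum (7 genes) was 603 to 763 CPM in total_SMC, 28.4 to 47.8 CPM in PASMC and 68.5 to 170 CPM in BSMC. All 7 were higher in total_SMC than in PASMC, 6 of 7 were higher in total_SMC than in BSMC, and 5 of 7 were lower in PASMC than in BSMC. These were 100%, 85.7% and 71.4% of the list, beside 16.2%, 41.9% and 22.1% of all tested genes. Upk3b, a uroplakin of mesothelium, was at 1955 ± 225 normalized read counts in total_SMC, 17.7 ± 8.62 in PASMC and 320 ± 134 in BSMC, and Bnc1, a transcription factor of mesothelium, was at 0 in all PASMC libraries. The endothelial sum (9 genes, none at 0 in a whole group) was 1382 to 1711 CPM in total_SMC, 805 to 1025 CPM in PASMC and 1034 to 1120 CPM in BSMC, also without overlap. Of these 9 genes, 6 were higher in total_SMC than in PASMC, 3 higher in total_SMC than in BSMC and 3 lower in PASMC than in BSMC, with no call in the other direction. These were 66.7%, 33.3% and 33.3% of the list, beside 16.2%, 41.9% and 22.1% of all tested genes. The share in total_SMC against BSMC was thus below that of all tested genes. The part of mesothelial or endothelial RNA in Rspo1 was not tested.

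**Figure D2:**
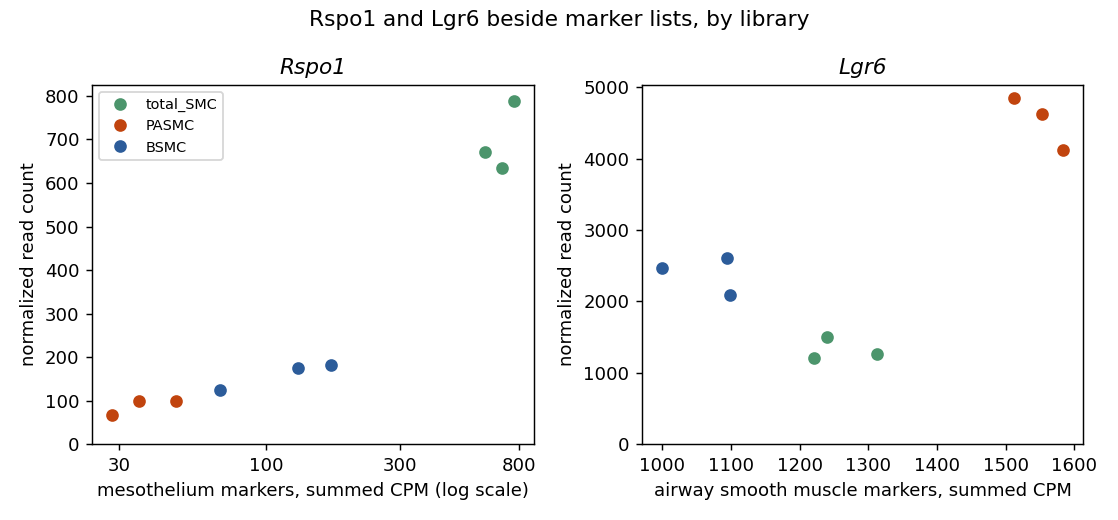
Normalized read counts of Rspo1 against the summed CPM of 7 mesothelium markers (left, log horizontal axis) and of Lgr6 against the summed CPM of 8 airway smooth muscle markers (right), with 1 point per library coloured by group. Rspo1 and the mesothelial sum are both highest in total_SMC and lowest in PASMC, and Lgr6 and the airway sum are both highest in PASMC, while total_SMC lies above BSMC in the airway sum and below it in Lgr6. Without Hhip the airway sums of PASMC and BSMC overlap.

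Rspo2 (ENSMUSG00000051920, chromosome 15, 42884190 to 43034222, minus strand), needed for lung and limb development in the mouse, had 22, 48 and 43 normalized read counts in total_SMC, 14, 0 and 4 in PASMC, and 0 in each BSMC library. Every total_SMC library lay above every other library, and PASMC was uneven, with 1 library above 10 and 1 at 0. Against a floor of 3 reads per BSMC library (a mean value of 3.29), the total_SMC mean was at least 11.4-fold higher. The limma fit, made on the values at 0 and not on this floor, gave adjusted p = 0.000871. In the fits with a filter, Rspo2 entered only through total_SMC and PASMC replicate 1. A call that held there is therefore not separate support for a higher level. The 118 reads of total_SMC against the 19 of PASMC gave a depth-corrected ratio of 6.42 (exact Poisson 95% interval 3.93 to 11.04, which covers counting error only). The fitted difference between total_SMC and PASMC was 3.12 (SE 0.89, adjusted p = 0.0328). It was 4.04 without PASMC replicate 1 and 2.08 without PASMC replicate 2. The call was lost without PASMC replicate 2 (0.108) or 3 (0.074), without total_SMC replicate 1 (0.0736), 2 (0.133) or 3 (0.138), and with the replicate number as a block (0.0514), with a pseudocount of 0.5 (0.0549) and on reads without scaling (0.0502), in a range of 0.00533 to 0.138. Between PASMC and BSMC Rspo2 was not called (adjusted p = 0.107), but it was without PASMC replicate 2 (0.0191) and with cyclic loess (0.0478), in a range of 0.0191 to 0.393.

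Rspo4 (ENSMUSG00000032852, chromosome 2, 151684847 to 151716588, plus strand), whose human counterpart is needed for nail growth, had 22, 33 and 25 normalized read counts in total_SMC, 2, 0 and 2 in PASMC, and 0 in each BSMC library. Every total_SMC library lay above every other library, and PASMC and BSMC were both at or under the level of 3 reads, so no fold is given between them. The total_SMC mean was at least 8.1-fold above the BSMC floor. The limma fit, made on the values at 0 and not on this floor, gave adjusted p = 0.000295 against BSMC. The 84 reads of total_SMC against 4 reads of PASMC gave a ratio of 21.7 (adjusted p = 0.00319 in limma). Its exact Poisson 95% interval was 8.17 to 81.5, which covers counting error only. Both calls held in the 17 alternatives that kept the gene, with adjusted p up to 0.00134 against BSMC and 0.0148 against PASMC. In the fits with a filter, Rspo4 entered through total_SMC alone, so a call that held there is not separate support for a higher level. The gene was dropped by the stricter filter and by each fit without 1 total_SMC library, so no leave-out of a total_SMC library tests it.

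Rspo3 (ENSMUSG00000019880, chromosome 10, 29328412 to 29411863, minus strand), a ligand needed for placental vessels in the mouse, had 35, 51 and 60 normalized read counts in total_SMC, 60, 60 and 65 in PASMC, and 56, 66 and 90 in BSMC. The groups overlapped in every comparison and none was called. The fitted differences were -0.37 for total_SMC against PASMC, -0.54 for total_SMC against BSMC and -0.17 for PASMC against BSMC (SE 0.31 each, adjusted p = 0.513, 0.179 and 0.711).

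The ligases are the membrane inhibitors of the axis. Znrf3 (ENSMUSG00000041961, chromosome 11, 5226324 to 5394847, minus strand) had 109, 86 and 74 normalized read counts in total_SMC, 129, 123 and 170 in PASMC, and 175, 121 and 233 in BSMC. All total_SMC libraries lay below all others, while PASMC and BSMC overlapped. Znrf3 was lower in total_SMC than in BSMC by -0.94 (SE 0.28, adjusted p = 0.0198) and was not called in total_SMC against PASMC (-0.65, SE 0.28, adjusted p = 0.154) or in PASMC against BSMC (-0.29, SE 0.28, adjusted p = 0.462). The comparison with PASMC passed with only its own 2 groups fitted (adjusted p = 0.0494) and with array weights (0.0151), and spanned 0.0151 to 0.424 over all alternatives. The lower level against BSMC was narrow. It missed the threshold when BSMC replicate 3 was left out (adjusted p = 0.067), and likewise without total_SMC replicate 2 (0.0574) or 3 (0.0841), in a range of 0.00358 to 0.0841. Leukocyte markers, all 10 lower in total_SMC than in BSMC, summed to 377 to 481 CPM in total_SMC and 1124 to 1651 CPM in BSMC. In PASMC, where Znrf3 lay above total_SMC, they summed to 305 to 322 CPM. Smooth muscle markers were also lower in total_SMC than in BSMC for 6 of 9 genes, with 0 higher. Vascular smooth muscle markers were lower there for 6 of 8, with 1 higher. Calls in either direction made up 100%, 66.7% and 87.5% of these lists in turn, beside 41.9% of all tested genes. Among the leukocyte markers, Cd3e passed the filter through BSMC alone, and Cd79a through BSMC and total_SMC replicate 2. Their calls are therefore not separate support. The part of any of these cells in Znrf3 was not tested.

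Rnf43 (ENSMUSG00000034177, chromosome 11, 87553548 to 87626365, plus strand) had 32, 32 and 16 normalized read counts in total_SMC, 33, 2 and 4 in PASMC, and 3, 2 and 1 in BSMC. PASMC replicate 1 was as high as total_SMC, and the other PASMC libraries were near BSMC. Rnf43 was higher in total_SMC than in BSMC by 3.20 (SE 0.83, adjusted p = 0.0103), and this held in the 20 alternatives that kept the gene (adjusted p up to 0.0431). In the fits with a filter, Rnf43 entered only through total_SMC and PASMC replicate 1, so a call that held there is not separate support. In reads, total_SMC had 85 against 6 in BSMC, a depth-corrected ratio of 12.6 (exact Poisson 95% interval 5.55 to 35.3, which covers counting error only). Between total_SMC and PASMC it was not called (1.73, SE 0.83, adjusted p = 0.205), but without PASMC replicate 1 it was (2.77, adjusted p = 0.027), in a range of 0.027 to 0.558. PASMC replicate 1 was also the highest PASMC library in Lgr4, Lgr5, Lgr6 and Rspo2, and the lowest in Rspo1.

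**Figure D3:**
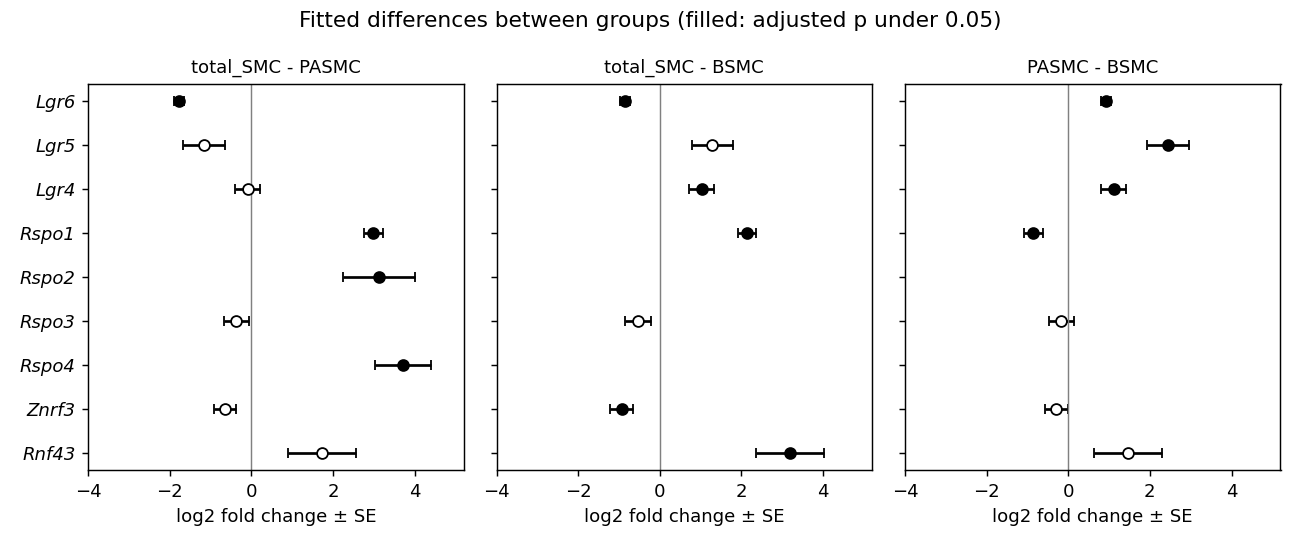
Fitted log2 fold changes (horizontal axis) with their SE for the 9 members in total_SMC minus PASMC, total_SMC minus BSMC and PASMC minus BSMC, filled where the adjusted p was under 0.05. Rspo2 and Rspo4 have no point against BSMC, where they were at 0. Lgr6 is called in all 3 panels and Rspo3 in none.

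Levels of different members can be compared per kilobase of exon. In this scale Lgr6 led the receptors in every library. In total_SMC it averaged 193 ± 22.7 normalized read counts per kb, against 47.5 ± 4.45 for Lgr4 and 13.1 ± 0.877 for Lgr5. In PASMC the values were 661 ± 54.7 for Lgr6, 51.2 ± 9.91 for Lgr4 and 30.6 ± 11.7 for Lgr5, and in BSMC 348 ± 39.0, 24.9 ± 10.1 and 6.56 ± 4.26 in the same order. Lgr6 made up 76.1% ± 1.1 of the receptor sum in total_SMC, 89.1% ± 1.61 in PASMC and 91.8% ± 2.06 in BSMC (SD, n = 3 each), so total_SMC had the lowest share in all of its libraries.

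Among ligands Rspo1 led per kb in every library. It made up 91.1% ± 2.72 of the ligand sum in total_SMC, 67.2% ± 6.73 in PASMC and 78.1% ± 4.89 in BSMC, and Rspo3 made up 4.06% ± 1.27, 29.97% ± 3.57 and 21.9% ± 4.89 in the same order. The receptor sum per kb was 0.543 to 0.742 times the ligand sum in total_SMC, 9.37 to 14.2 times in PASMC and 2.92 to 4.72 times in BSMC, and these ranges did not overlap. Receptor RNA thus exceeded ligand RNA per kb in all PASMC and BSMC libraries, and fell short of it in all total_SMC libraries. These shares and ratios were not tested, because they are scores over the chosen members.

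**Figure D4:**
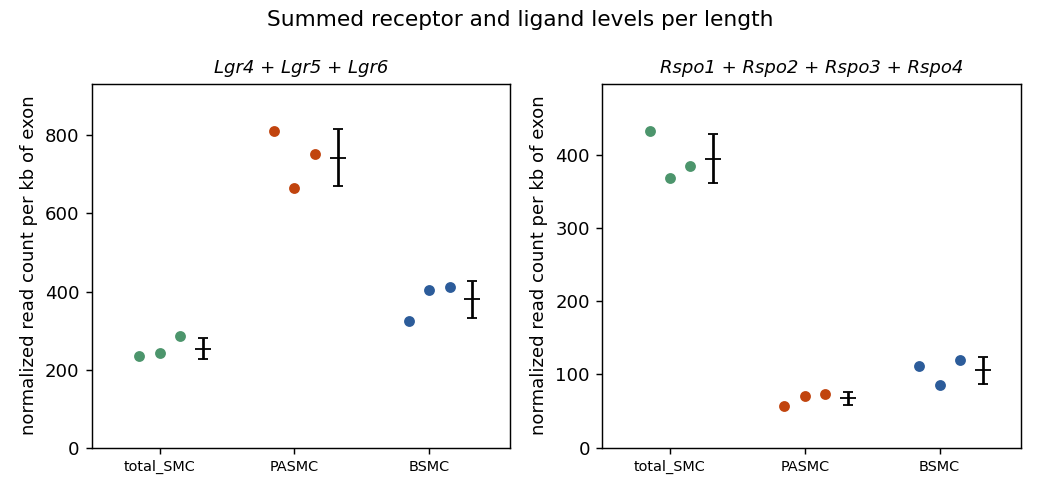
Summed normalized read count per kb of exon (vertical axes from 0) of the 3 receptors (left) and the 4 ligands (right) in each library (points), with the mean and SD of each group of 3. The receptor sum is highest in PASMC (665 to 811) and lowest in total_SMC (235 to 285), and the ligand sum is highest in total_SMC (367 to 432) and lowest in PASMC (57.1 to 73.7).

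Start-site sequence was at hand for 5 of the 9 members (Lgr4, Lgr6, Rspo1, Rspo4 and Rnf43). The 250 bases before the RefSeq start (build GRCm38.p6, unlike the mm39 coordinates above) are shown for the receptors Lgr6 and Lgr4, which were both higher in PASMC than in BSMC, and for the ligands Rspo1 and Rspo4, which were both highest in total_SMC. Each is written 5′ to 3′ on the strand of the gene, and capitals mark matches on either strand to an E-box (CANNTG), a GC box (GGGCGG) or a CArG box, the site of serum response factor.
Lgr6 (chr1:135105277-135105526, - strand): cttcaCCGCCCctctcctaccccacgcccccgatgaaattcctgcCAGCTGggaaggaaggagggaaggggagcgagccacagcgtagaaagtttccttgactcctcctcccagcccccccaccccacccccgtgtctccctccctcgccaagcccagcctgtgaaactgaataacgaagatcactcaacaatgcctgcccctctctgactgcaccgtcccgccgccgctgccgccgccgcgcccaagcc
Lgr4 (chr2:109917397-109917646, + strand): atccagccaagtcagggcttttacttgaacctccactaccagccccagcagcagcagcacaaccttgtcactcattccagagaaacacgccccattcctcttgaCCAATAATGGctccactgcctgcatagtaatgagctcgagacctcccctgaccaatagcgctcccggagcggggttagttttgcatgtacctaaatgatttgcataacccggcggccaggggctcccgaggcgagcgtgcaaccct
Rspo1 (chr4:124986180-124986429, + strand): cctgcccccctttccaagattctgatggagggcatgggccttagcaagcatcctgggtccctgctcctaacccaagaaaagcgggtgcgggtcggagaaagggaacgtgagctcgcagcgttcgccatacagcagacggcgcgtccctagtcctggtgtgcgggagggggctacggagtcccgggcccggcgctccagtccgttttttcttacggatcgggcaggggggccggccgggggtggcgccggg
Rspo4 (chr2:151842677-151842926, + strand): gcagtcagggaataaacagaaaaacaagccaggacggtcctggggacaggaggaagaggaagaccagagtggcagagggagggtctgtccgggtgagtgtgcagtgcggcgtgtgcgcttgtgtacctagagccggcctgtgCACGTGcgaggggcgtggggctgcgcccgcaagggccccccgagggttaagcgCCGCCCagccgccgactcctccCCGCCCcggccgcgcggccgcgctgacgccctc
Lgr6 had 1 E-box, beginning 205 bases before the start, and 1 GC box. Lgr4 had 1 CArG box, beginning 146 bases before the start, a match held by 1.47% of 32851 RefSeq start-site windows of the same length, and Rspo1 had no match to any of these motifs. Rspo4 had 1 E-box and 2 GC boxes. E-boxes occurred in 66.2% and GC boxes in 32.7% of all windows. The letters of a TCF/LEF core (CTTTGA, in 13.8% of windows), a TATA box (TATAAA, in 12.4%) and a cyclic AMP response element (TGACGTCA, in 1.55%) were in none of the 4 windows. The base composition was 65.2% G or C in Lgr6, 55.6% in Lgr4, 66.8% in Rspo1 and 69.6% in Rspo4, where the median window had 52.4%. These matches describe letters and say nothing of binding.

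The genes around the axis were read from lists, whose counts stand beside the 16.2% (total_SMC against PASMC), 41.9% (total_SMC against BSMC) and 22.1% (PASMC against BSMC) called over all tested genes. Of 19 Wnt ligands 13 were tested, and 4 were higher and 0 lower in total_SMC than in PASMC, with a median log2 fold change of 0.63 beside 0.03 over all genes tested. In total_SMC against BSMC 7 were higher and 0 lower (median 1.64, beside 0.05), and in PASMC against BSMC 6 were higher and 0 lower (median 1.40, beside 0.05). These were 30.8%, 53.8% and 46.2% of those tested in the 3 comparisons. Wnt5a, a ligand of airway mesenchyme, was at 1775 ± 236 in total_SMC, 1112 ± 104 in PASMC and 306 ± 58.8 in BSMC. Wnt9a was at 966 ± 127, 630 ± 131 and 310 ± 52.0 in the same order and was called in all 3 comparisons. Wnt2, a ligand needed for lung formation in the mouse, was at 150 ± 24.8 in total_SMC, 62.7 ± 20.2 in PASMC and 12.7 ± 11.2 in BSMC. It was called against BSMC from both sides (log2 fold change 4.35, adjusted p = 0.00312, and 3.07, adjusted p = 0.0335).

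Among 15 Wnt receptors and coreceptors, 2 were higher and 1 lower in total_SMC than in PASMC, 3 higher and 1 lower in total_SMC than in BSMC, and 5 higher and 0 lower in PASMC than in BSMC. These were 20.0%, 26.7% and 33.3% of the list, with medians of -0.05, 0.33 and 0.28, so the share was near that of all genes in the first comparison and below it in the second. Fzd4, a Frizzled receptor that the ligases can act on, was at 2882 ± 231 in total_SMC, 803 ± 67.6 in PASMC and 312 ± 66.2 in BSMC, and was called in every comparison. The coreceptors of beta-catenin signalling went opposite ways: Lrp6 was at 1109 ± 189 in total_SMC and 668 ± 112 in PASMC (0.73, adjusted p = 0.0291), and Lrp5 at 72.0 ± 14.4 in total_SMC and 149 ± 13.7 in PASMC (-1.05, adjusted p = 0.0092). Fzd1, another Frizzled receptor gene, was at 2495 ± 230 in total_SMC, 2897 ± 114 in PASMC and 2432 ± 616 in BSMC, and was not called in any comparison.

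Of 17 Wnt antagonists 13 were tested. In total_SMC 2 were higher and 2 lower than in PASMC, and 7 were higher and 4 lower than in BSMC, while PASMC had 4 higher and 0 lower than BSMC. These were 30.8%, 84.6% and 30.8% of those tested, with medians of 0.14, 1.00 and 0.15. Sfrp1 and Sfrp4, secreted proteins with a Frizzled-like domain that bind Wnt, were at 1674 ± 278 and 1324 ± 45.4 in total_SMC and at 588 ± 97.9 and 346 ± 74.1 in PASMC (1.51 and 1.96, adjusted p = 0.00483 and 8.5e-05). Sfrp2, of the same family, was lower in total_SMC, at 1190 ± 112 against 1909 ± 97.7 in PASMC (-0.68, adjusted p = 0.00147). Sost, the Lrp antagonist sclerostin of bone, was at 341 ± 192 in total_SMC and 1419 ± 294 in PASMC (-2.21, adjusted p = 0.00109).

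The list of common beta-catenin targets held 16 genes, 3 of them members (Lgr5, Znrf3 and Rnf43), and 15 were tested. It shares Apcdd1, Notum, Dkk2 and Wif1 with the list of antagonists, all of them called in total_SMC against BSMC. The counts of these lists are therefore not separate. In total_SMC 0 were higher and 2 lower than in PASMC, and 5 were higher and 4 lower than in BSMC, with medians of 0.14 and 0.18. In PASMC 5 were higher and 1 lower than in BSMC (median 0.24). These were 13.3%, 60% and 40% of those tested. Axin2, the target most used as a readout of the pathway and named here outside the rule for named genes after its values were seen, had 84, 89 and 78 normalized read counts in total_SMC, 72, 95 and 119 in PASMC, and 118, 73 and 102 in BSMC. The groups overlapped, and its fitted differences were -0.16, -0.20 and -0.04 for total_SMC against PASMC, total_SMC against BSMC and PASMC against BSMC (SE 0.28, adjusted p = 0.794, 0.586 and 0.935). Nkd1, an inhibitor of Dishevelled induced by Wnt, was at 1715 ± 140 in total_SMC, 2820 ± 49.5 in PASMC and 3153 ± 188 in BSMC, and was lower in total_SMC than in either (-0.72 and -0.88, adjusted p = 0.000606 and 6.8e-05). Apcdd1, a Wnt inhibitor of the membrane, was higher in total_SMC (494 ± 39.3) and in PASMC (318 ± 41.1) than in BSMC (166 ± 54.2), by 1.61 and 0.97 (adjusted p = 0.000211 and 0.0106).

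Heparan sulfate carriers, which R-spondins can also bind, gave 1 higher and 2 lower of 8 tested in total_SMC against PASMC, 1 and 1 in total_SMC against BSMC, and 3 and 0 in PASMC against BSMC. These were 37.5%, 25.0% and 37.5% of those tested, with medians of -0.24, 0.11 and 0.56. Gpc3, a glypican, was at 3882 ± 298 in total_SMC, 2341 ± 201 in PASMC and 1160 ± 102 in BSMC, and was called in every comparison. The list of pathway transducers (20 genes) also held Wls and Porcn, which belong to the secretion of Wnt. It gave 0 higher and 1 lower, 4 and 4, and 2 and 0 in the same comparisons. These were 5%, 40% and 10% of the list, below or near the shares over all genes, with medians of -0.17, 0.16 and 0.25. Wls, the carrier that brings Wnt to the cell surface, was at 2849 ± 57.4 in total_SMC, 2837 ± 105 in PASMC and 2386 ± 355 in BSMC, and was not called in any comparison.

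The genes most like Lgr6 over the 9 libraries were sought by Pearson correlation of log2 values among 10285 protein-coding genes. They were Thsd4, which encodes a microfibril-associated protein (r = 0.990), Slc25a34, a mitochondrial carrier gene (0.987), Scube3, which encodes a secreted protein with epidermal growth factor repeats (0.984), Qars, a glutaminyl-tRNA synthetase gene (0.980), and Srf, serum response factor (0.979), where the sixth gene had 0.978. Thsd4 was at 1061 ± 173 in total_SMC, 2958 ± 331 in PASMC and 1716 ± 124 in BSMC, and Scube3 at 547 ± 95.1, 1725 ± 200 and 1078 ± 142 in the same order. Srf was at 415 ± 20.2, 770 ± 63.1 and 603 ± 23.7. Those closest to Rspo1 were Fmo1, a flavin monooxygenase gene (0.986), Adcy4, an adenylyl cyclase gene (0.986), and Renbp, a renin-binding protein gene (0.984), with Fmo1 at 2556 ± 153 in total_SMC, 1213 ± 77.3 in PASMC and 1424 ± 78.8 in BSMC. These values describe 9 libraries that share 3 groups, so a like order of the groups is enough to give a high r.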

How the data were processed

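The deposited table held values per gene that, by their spacing, are read counts which the authors had scaled by a factor per library and rounded to whole numbers, a unit recorded here as a score. The factors were recovered from that spacing. Build mm39, DESeq2 1.36.0, featureCounts 2.0.4, STAR 2.7.11a, Trimmomatic 0.39 and Picard 3.1.1 stand in the submitters' processing notes, which give no role or order. RNA, at most 10 ng, went into SMART-Seq v4 libraries, per the labels' protocols. That kit does not mark strand, so reads of a gene and an antisense partner cannot be told apart.

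The test covered 15647 genes that reached 10 in 3 or more libraries. A single limma fit over the 9 libraries, with a mean per group, used log2 of value plus 1 (limma 3.58.1, R 4.3.3, eBayes with trend and robust options), with p-values adjusted by Benjamini-Hochberg over all genes and a threshold of 0.05. A value divided by its library's factor is called reads. Values are mean ± SD with n = 3. The labels do not say whether replicates were separate animals, and p-values may hold technical spread alone. Chi-square per gene between libraries of a group was 6.05 to 30.3, so none was a copy. CPM are deposited values scaled to a common library total. Exon lengths came from GENCODE M21 by gene identifier, for 96.7% of genes, and sequences from RefSeq. Tables and figures were made with Python 3.11.15, pandas 2.3.3, scipy 1.17.1 and matplotlib 3.10.9.

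Members and lists were chosen with earlier results of these data known. Named genes were all members, up to 3 called genes per list, direction and comparison whose higher group averaged 100 or more, the 2 most abundant of each list, the 5 genes most like Lgr6 and the 3 most like Rspo1. The text gives part of this set, marker genes from the lists, and Axin2, chosen after its values were seen. Alternatives left out each library, added the replicate number as a block, and changed the pseudocount, filter, samples fitted, normalization, weights and variance model.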

Additional observations from a re-analysis of the deposited data

How the results depend on the processing

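Each of 27 member differences (9 genes in 3 comparisons) was recomputed under up to 21 alternatives, and 15 kept their direction and their side of the threshold in every one run. Of 546 such values 509 did so, 23 lost a call, 11 gained one and 3 changed sign, none of which had been called. Those were Rspo3 in PASMC against BSMC, at 0.019 without BSMC replicate 3 and 0.061 on reads without scaling (-0.32 to 0.019 with 1 library left out), and Lgr4 in total_SMC against PASMC, at 0.019 without PASMC replicate 1 (-0.26 to 0.019). The cause was not tested.

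The counts of called genes leaned on single libraries. They were 1597 to 3205 for total_SMC against PASMC, 4254 to 8056 for total_SMC against BSMC and 1701 to 6364 for PASMC against BSMC with 1 library left out, against 2539, 6553 and 3451. Leaving out BSMC replicate 1 gave 1827 calls in PASMC against BSMC, replicate 2 gave 6364 and replicate 3 gave 2299, while PASMC replicates 1 and 2 gave 1701 and 1977. For total_SMC against PASMC it was 1607, 1597 and 1610 without total_SMC replicates 1, 2 and 3, and for total_SMC against BSMC 4254 without total_SMC replicate 3. With only the libraries of the 2 groups fitted, it was 4231 for total_SMC against PASMC and 1941 for PASMC against BSMC, and array weights gave 5082 for total_SMC against PASMC. A group left with 2 libraries was assumed to vary like the others. On reads without scaling, an alternative chosen after seeing the data, the median of all genes moved to 0.23 in total_SMC against BSMC and 0.28 in PASMC against BSMC, and with equal totals to -0.11 in total_SMC against BSMC.

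The replicate number as a block gave 2286, 6350 and 3287 calls in total_SMC against PASMC, total_SMC against BSMC and PASMC against BSMC. It ended the call of Rspo2 in total_SMC against PASMC (adjusted p = 0.0514) and gave one to Lgr5 in total_SMC against BSMC (0.0479), and changed no other call of a member. No pairing of same-numbered libraries was seen. Correlations of their deviations ran from -0.12 to 0.14, and 2 of 9 libraries correlated best with their own number. The labels name no batch, and these correlations cannot show that there was none. Low counts limit Rspo2, Rspo4 and Rnf43, which some filters and left-out libraries removed from the test.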
